A study of Mus musculus with 15 samples.

Results

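Chromatin accessibility was compared between islets of adult male mice whose β cells had lost Arid1a (Arid1a βKO) and islets of control mice, before any surgery. All peaks of the authors' deposited table for this comparison were used, 1 per position, which gave 7826 peaks of 601 bp annotated to 6682 genes. The comparison rests on 7 of the 15 mice of the study, 4 controls and 3 βKO, and each mouse gave 1 ATAC-seq library. ATAC-seq uses the Tn5 transposase to cut and tag DNA where chromatin is open, so the number of reads at a site reports its accessibility. The other 8 mice, 4 of each genotype, were taken 6 days after partial pancreatectomy (PPx), the removal of part of the pancreas, and serve here only to ask what the same peaks did in animals that the first comparison did not use.

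All mice were 3 months old and carried floxed Arid1a on both alleles (Arid1aFl/Fl) together with MIP-rtTA, a doxycycline-dependent activator driven by the mouse insulin promoter. The βKO mice also carried TRE-Cre, a Cre recombinase that this activator switches on, so controls had the floxed alleles and the activator but no Cre. Doxycycline was given to the mice at 1 g/L in drinking water for 2 weeks, and PPx followed 1 week after its withdrawal. The interval between doxycycline and the baseline islets, the strain background and the exons that the loxP sites flank were not given in the sources used here. The insulin promoter directs Cre to β cells, whereas each library was made from 40000 dispersed islet cells of every kind. In such bulk material, a smaller share of one cell type and lower accessibility per cell cannot be told apart.

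ARID1A is a DNA-binding subunit of the canonical BAF (SWI/SNF) complex, which uses ATP to slide and evict nucleosomes. BAF is best known for holding enhancers open, where lineage transcription factors bind, while promoters rich in CpG depend on it less. In β cells such enhancers lie around genes for insulin secretion and for islet transcription factors.

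The deposited values are means per group of log2 concentration, the authors' log2 of normalized reads per peak, and no value per library was used. The median peak had a mean log2 concentration of 4.02 (quartiles 3.60 and 4.60). A change below is always βKO minus control on this log2 scale. An approximate standard error (SE) of each change was derived from the authors' p-value, as the change divided by the normal quantile of p. It had a median of 0.44 (quartiles 0.38 and 0.50) over 3421 peaks with p under 0.5 and a change of at least 0.1. At that SE a peak that differed alone needed a change of 1.97 for the top rank to pass an adjusted threshold of 0.05. The bar is lower where many peaks differ. Differences of moderate size at few peaks could therefore be missed with these mice.

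Islet identity was checked against marker genes. Peaks were listed at Ins1, at the α cell hormone gene Gcg, at the δ cell hormone gene Sst and at the islet transcription factor genes Pax6, Isl1, Nkx6-1, Foxa2, Rfx3, Rfx6 and St18. The table listed no peak at Ins2, Pdx1 or Mafa, which are defining genes of β cells. Of 18 acinar marker genes, 0 had a peak.

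The whole set of peaks lay close to the diagonal. The median change was -0.01, and 6252 peaks (79.9%) lay within 0.5 of 0. The lower tail was longer than the upper one: the 5th percentile was -0.77 and the 95th 0.58, and 194 peaks had a change of -1 or less against 45 of 1 or more. A single peak (1) in the authors' deposited table passed a false discovery rate (FDR) of 0.05, which is 0.0128% of the peaks, and it was higher in βKO. The other 7825 peaks had an FDR of 1. At an unadjusted p under 0.05, 66 peaks (0.843%) had the higher mean in βKO and 180 (2.3%) the lower mean. These 246 peaks make 3.14% of all peaks and are described below as the ends of a ranking, not as calls. If no peak differed and the p-values were exact, a larger share than this would on average fall under 0.05.

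**Figure D1:**
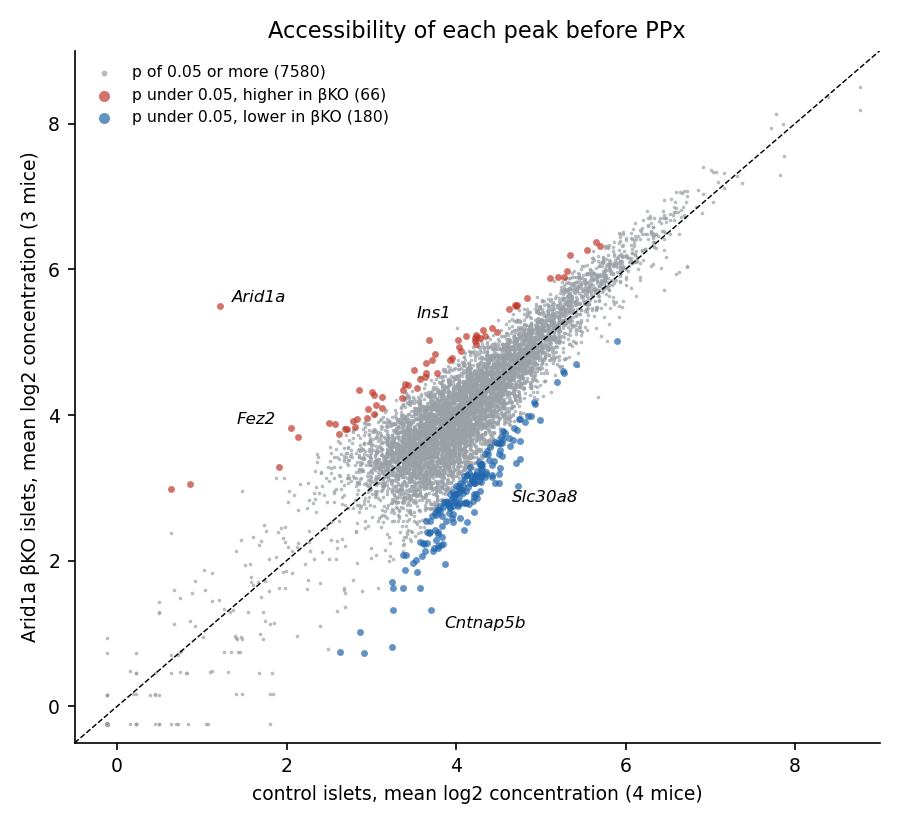
Mean log2 concentration of each peak before PPx, with control islets (4 mice) on the x axis and βKO islets (3 mice) on the y axis; each point is 1 peak, coloured where the authors' unadjusted p was under 0.05, the dashed line marks equality, and 6 peaks above 9 lie outside the axes. Arid1a stands apart above the line, and more coloured peaks lie below the line (180) than above it (66).

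The peak that passed the FDR lay in Arid1a itself (ENSMUSG00000007880), in exon 9 of 20 at chr4:133692981-133693581 (mm10). In the authors' deposited table its mean log2 concentration was 1.21 in controls and 5.49 in βKO, a change of 4.28 (SE 0.83) or 19.4-fold, with an FDR of 0.00187. The authors called it in none of the 4 control libraries but all 3 of βKO. It was the only peak listed at Arid1a, with none at its promoter. After PPx, in other mice, the authors' deposited table again gave a mean near the floor in controls, 0.40, against 4.04 in βKO islets (FDR 0.00201). Both comparisons thus separate the genotypes at the targeted gene. Since the deleted exons are not given, the peak does not measure the deletion itself.

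Peak changes differed with genomic position. The 5295 promoter peaks within 1 kb of a start site, 67.7% of the set, had a median change of 0.04 (quartiles -0.19 and 0.26), and 54.8% of them had the higher mean in βKO. The 750 intron peaks had a median of -0.21 (quartiles -0.58 and 0.10), and 31.2% were higher. Distal intergenic peaks lay between, with a median of -0.12 over 1435 peaks and 38.3% higher. Of the classes of moderate size, exons (98 peaks) had a median of -0.10, promoters at 2 to 3 kb (77 peaks) -0.17 and promoters at 1 to 2 kb (105 peaks) 0.00. The 37 peaks in untranslated regions had a median of -0.13 and the 29 downstream peaks -0.07. Peaks are not replicates, so these medians carry no test, and each is smaller than the SE of a single peak.

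The lower end of the ranking was made up mainly of sites away from promoters. Of the 180 peaks lower at p under 0.05, 45 were promoters within 1 kb, 54 lay in introns and 62 in distal intergenic sequence. As shares, that is 0.850% of the promoter peaks, 7.20% of the intron peaks and 4.32% of the distal peaks, beside 2.3% of all peaks. The 66 higher peaks held 40 promoters, 8 introns and 14 distal sites, which is 0.755% of the promoter peaks, 1.07% of the intron peaks and 0.976% of the distal peaks, beside 0.843% of all. The classes thus lay near the whole set at this end. Introns after the first had a median of -0.24 (550 peaks) and first introns -0.15 (200 peaks). Distance to the nearest RefSeq start ordered the peaks in the same way up to 50 kb. The share lower at p under 0.05 was 0.808% among 4330 peaks under 1000 bp away, 4.43% among 384 peaks at 3000 to 10000 bp, 5.65% among 1132 peaks at 10000 to 50000 bp and 3.63% among 1517 peaks beyond.

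Peak strength moved with the change as well. In 10 bins of mean log2 concentration the median change went from -0.12 in the weakest bin to 0.18 in the strongest, a gap of 0.30. Without 116 peaks that held the table's lowest value in both groups, from which no change can be read, the gap was 0.22. Promoter peaks went from -0.09 (297 peaks) to 0.21 (658 peaks), whereas introns stayed at or below -0.08 in every bin other than the ninth, where 30 peaks had a median of 0.05. Relative to the median of their own strength bin, promoters within 1 kb stood at 0.03, introns at -0.16 and distal peaks at -0.03. Promoters at 2 to 3 kb stood at -0.18 on this measure. Introns thus remained low among peaks of like strength. Distal peaks came close to the bin medians, but their median was below that of promoters in each of the 10 bins. In the strongest bin the distal median was 0.05 against 0.21 for promoters, and in the weakest -0.12 against -0.09. Of the 116 peaks at the table's lowest value, 81 were distal. The part of library depth and scaling in the trend with strength was not tested.

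**Figure D2:**
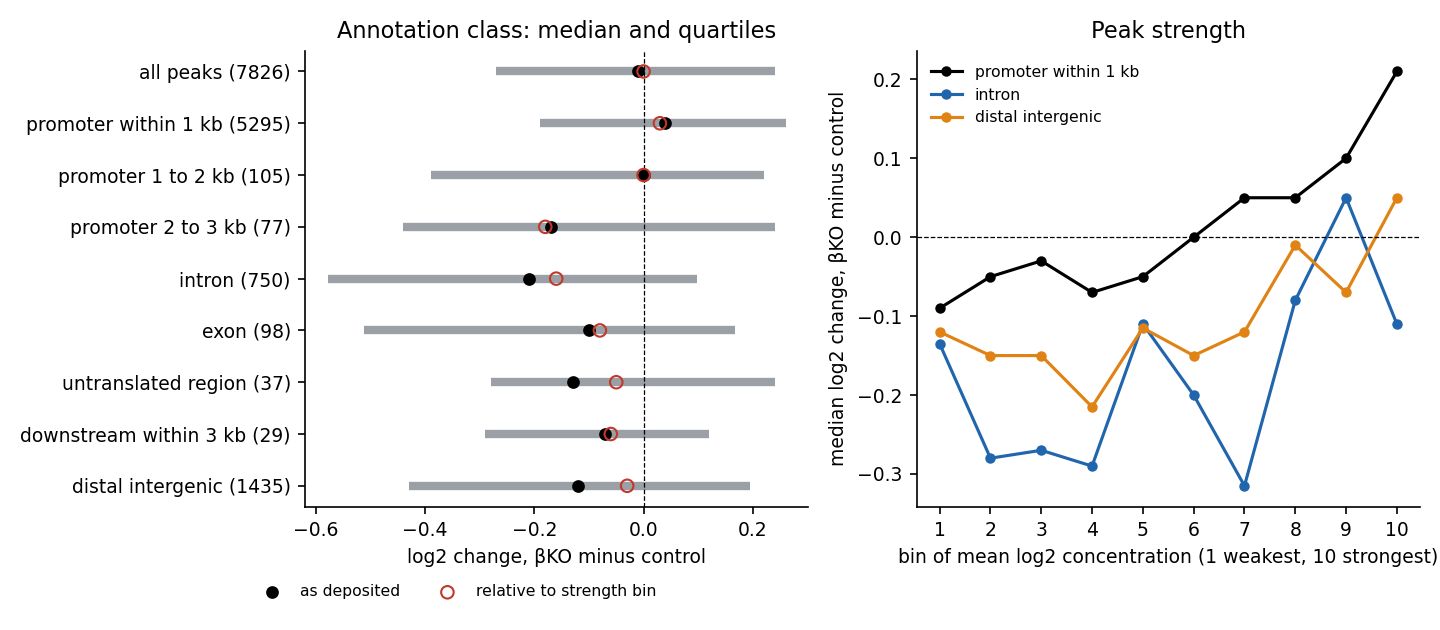
Left, median log2 change (black) with quartiles (grey bars) of each annotation class before PPx, the number of peaks in brackets, and the median relative to peaks of the same strength (red rings); right, median change in 10 bins of mean log2 concentration for promoter, intron and distal peaks. Introns have the lowest median at -0.21, and the promoter line rises from -0.09 to 0.21.

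The number of libraries in which the authors called a peak gave a second description of the same data. All 7 libraries held 2109 peaks (26.9%). Peaks called in no control library numbered 397, and those called in no βKO library 473. Calls in none of the 4 control libraries but all 3 of βKO were recorded for 60 peaks, with a median change of 0.60. Of these 60, 37 (61.7%) were promoters within 1 kb, beside 67.7% of all peaks. The reverse, calls in 4 of 4 control and 0 of 3 βKO libraries, was recorded for 11 peaks with a median change of -0.95. Of those 11, 3 were promoters within 1 kb and 8 intron or distal sites. The Slc30a8 and Kirrel3 introns described next were among them.

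The sites with the smallest p among those lower in βKO were mostly intronic or intergenic. Those at genes of secretion, signalling and cell adhesion are described first, a grouping read from the ranking and not tested. The lowest p of the 180 belonged to a distal site assigned to Cntnap5b, a contactin-associated adhesion protein, at chr1:99739958-99740558. In the authors' deposited table it went from 3.71 in control to 1.33 in βKO islets, a change of -2.38 (SE 0.69, p = 0.000583), and was called in 2 of 4 and 0 of 3 libraries. Slc30a8 encodes ZnT8, the transporter that loads zinc into insulin granules. The authors' deposited table gave its intron 2 of 7, at chr15:52315984-52316584, 4.51 in controls and 3.06 in βKO (SE of the change 0.44, p = 0.0011).

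Other lower sites lay in genes of cAMP signalling. Intron 3 of 16 of Pde4d, a cAMP phosphodiesterase, had means of 4.09 and 2.42 in the authors' deposited table (p = 0.0012). Prkar2b, a regulatory subunit of protein kinase A, had 2 intron peaks at p under 0.05: intron 5 of 11 at 4.99 in controls and 3.93 in βKO, and intron 2 at 3.26 and 1.62, in the authors' deposited table. No list of cAMP genes was tested, and these were reached through the ranking alone.

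Adhesion genes were also present. The authors' deposited table listed intron 2 of 16 of Kirrel3, an immunoglobulin-type adhesion molecule, at 4.51 in controls and 3.19 in βKO (p = 0.00233). A distal site assigned to Lrfn2, a synaptic adhesion protein, had means of 3.79 and 2.18 there. Against these, an intron of Il1rapl2, of the same class of genes, was higher in βKO, at 2.96 in controls and 4.08 in βKO in the authors' deposited table. Lrfn2 and Il1rapl2, like Sst and Gcg below, were named after their values were seen. All 90 peaks of neural adhesion genes had a median change of 0.04, beside -0.01 for all peaks. At p under 0.05, 4 of the 90 were lower and 1 higher, beside 2.3% and 0.843% of all peaks. Only 26 of the 90 lay within 3 kb of a start site. Of all peaks other than promoters within 1 kb, 5.33% were lower and 1.03% higher.

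The remaining lower sites had varied roles. A distal site assigned to Fam107a, an actin-associated protein, had 4.73 and 3.03 (p = 0.00116), and a site 2 to 3 kb from the start of Sepsecs, which makes selenocysteinyl-tRNA, 4.46 and 3.07 (p = 0.00152), in the authors' deposited table. Others of the 12 with the smallest p were at Tmem267, Lrrc74b, Nnt, Senp7 and n-R5s165, with changes from -1.95 to -1.25 in the authors' deposited table. The Nnt and Tmem267 sites both lie on chromosome 13, at chr13:119256279-119256879 and chr13:119600257-119600857. Whether these sites differ independently of each other was not tested. Lrrc74b was the only promoter within 1 kb among the 12, beside 5 introns, 1 exon and 4 distal sites. At Tmem267 the calls went against the means: the intron was called in none of the 4 control libraries but all 3 of βKO, although its mean was 4.75 in controls and 3.40 in βKO.

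**Figure D3:**
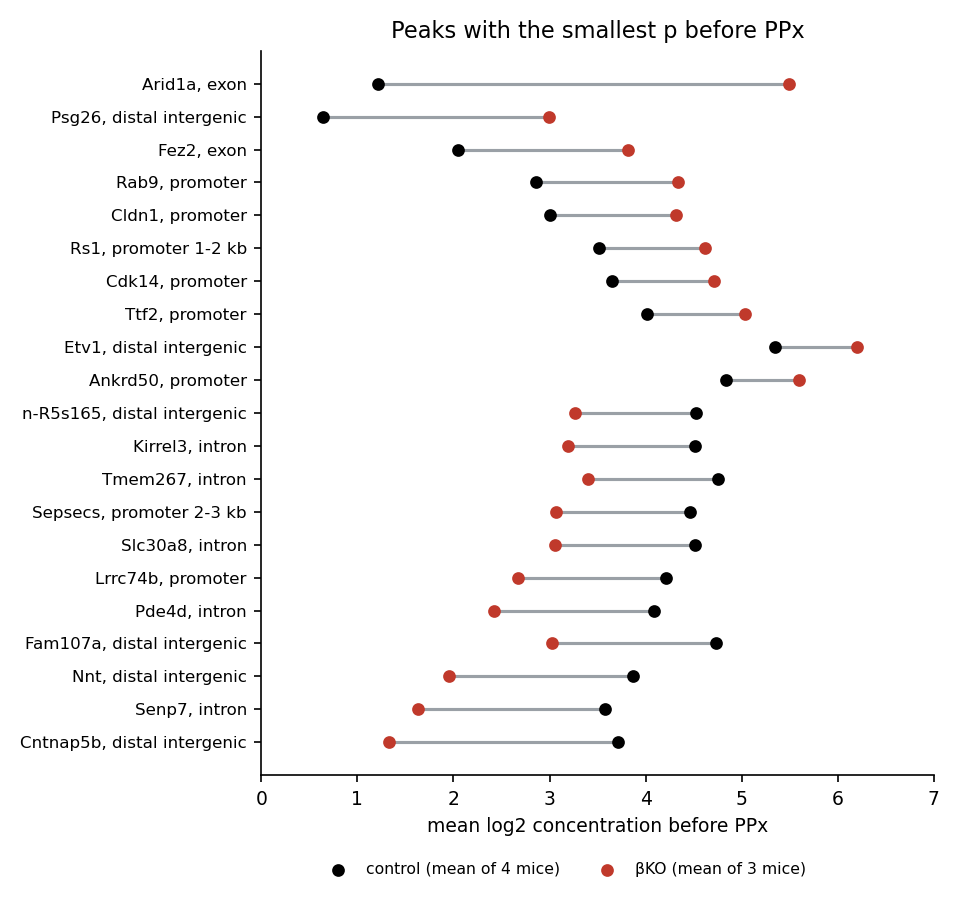
Mean log2 concentration before PPx in control (black, 4 mice) and βKO islets (red, 3 mice) for the 10 higher and 11 of the 12 lower peaks with the smallest authors' p among genes with an established name, ordered by change. Arid1a spans 1.21 to 5.49, and the other lines are shorter and run both ways.

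At the higher end of the ranking, a distal site at the predicted gene Gm5274 came next after Arid1a (p = 0.000516 in the authors' deposited table). Among genes with an established name, the smallest p after Arid1a belonged to the promoter of Cldn1, a tight-junction claudin, at chr16:26371564-26372164: in the authors' deposited table its means were 3.01 in controls and 4.32 in βKO (SE of the change 0.45, p = 0.00372), with calls in 0 of 4 and 3 of 3 libraries. The promoter of Rab9, a GTPase of late endosomes, had 2.86 and 4.34 (p = 0.00464), and exon 5 of 8 of Fez2 2.05 and 3.82 (p = 0.0044), in the authors' deposited table. A distal site assigned to Etv1, an ETS-family transcription factor, was already strong in controls, with 5.35 and 6.20 in the authors' deposited table (p = 0.00675). The promoters of Ttf2, a transcription termination factor, Cdk14, a cyclin-dependent kinase, and Ankrd50 differed by 1.01, 1.06 and 0.76 in the authors' deposited table. Of the 10 higher peaks so named, 5 were promoters within 1 kb, 2 exons and 2 distal sites.

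Promoters in both tails are shown for the genes on which the account turns, as the 250 bases before the RefSeq start (GRCm38.p6), each lying whole inside its peak. Capitals mark matches, on either strand, to the GC box GGGCGG, to the NF-Y site written CCAAT or, from the other strand, ATTGG, and to the box known as TATAAA. The first 3 had the higher mean in βKO: Ins1 at chr19:52264047-52264296 (plus strand), Cldn1 at chr16:26371840-26372089 (minus strand) and Ttf2 at chr3:100969664-100969913 (minus strand). The other 2 had the lower mean: Slc35b1 at chr11:95384606-95384855 (plus strand) and Psmd1 at chr1:86064369-86064618 (plus strand).
Ins1: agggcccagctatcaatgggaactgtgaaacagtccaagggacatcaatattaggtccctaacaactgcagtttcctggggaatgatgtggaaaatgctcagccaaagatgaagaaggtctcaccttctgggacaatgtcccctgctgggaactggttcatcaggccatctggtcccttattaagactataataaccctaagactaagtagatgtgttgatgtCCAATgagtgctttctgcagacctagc
Cldn1: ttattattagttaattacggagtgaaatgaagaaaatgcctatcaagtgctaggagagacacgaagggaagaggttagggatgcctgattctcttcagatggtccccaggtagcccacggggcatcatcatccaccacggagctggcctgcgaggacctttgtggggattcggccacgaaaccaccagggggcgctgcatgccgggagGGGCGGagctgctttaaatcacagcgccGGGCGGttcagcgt
Ttf2: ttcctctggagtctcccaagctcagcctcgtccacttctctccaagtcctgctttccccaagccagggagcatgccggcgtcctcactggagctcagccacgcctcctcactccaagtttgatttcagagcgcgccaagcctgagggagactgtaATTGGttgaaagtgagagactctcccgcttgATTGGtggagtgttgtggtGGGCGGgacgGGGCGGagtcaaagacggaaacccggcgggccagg
Slc35b1: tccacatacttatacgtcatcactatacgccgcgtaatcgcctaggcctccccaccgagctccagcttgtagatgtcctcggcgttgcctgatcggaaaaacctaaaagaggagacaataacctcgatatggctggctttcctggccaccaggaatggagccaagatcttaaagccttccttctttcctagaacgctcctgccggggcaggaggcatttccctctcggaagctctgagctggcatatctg
Psmd1: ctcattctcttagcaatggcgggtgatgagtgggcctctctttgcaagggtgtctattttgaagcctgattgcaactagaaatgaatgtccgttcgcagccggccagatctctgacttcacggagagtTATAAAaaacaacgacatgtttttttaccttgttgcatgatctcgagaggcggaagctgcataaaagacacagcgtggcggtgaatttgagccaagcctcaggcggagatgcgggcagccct
The printed Ins1 stretch held 46.4% G and C, Ttf2 60.0%, Cldn1 55.6%, Slc35b1 53.2% and Psmd1 49.6%, so neither tail had one base composition.

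Motif content was counted in the 300 bases from 250 before to 50 after the start, on both strands, for the 4052 promoter peaks with a RefSeq start within 550 bp of their centre. The GC box was in 72.0% of these and in 35.7% of all 32851 promoters in the RefSeq table. It was in 24 of the 33 promoters higher at p under 0.05 and in 19 of the 32 lower ones. CCAAT, the site of the factor NF-Y, was in 46.5% of promoters under peaks and 37.4% of all, in 6 of the 33 higher (18.2%) and 17 of the 32 lower (53.1%). The ETS core CCGGAAG was in 19.5% and 8.86%, and in 5 higher and 11 lower promoters. The cAMP response element TGACGTCA was in 4.17% and 1.79%, the E-box CACGTG in 10.5% and 7.15%, TATAAA in 5.40% and 13.6%, and the AP-1 site TGANTCA in 3.63% and 7.81%. Each of these 4 was in at most 3 promoters of either tail. Over all 4052 promoters the median change was 0.01 with CCAAT and 0.07 without it. The 783 promoters richest in G and C (median 73.3%) had a median change of 0.12, against 0.01 to 0.04 in the other 4 bins of G and C content.

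Genes of β cell function had peaks on both sides. Of 43 genes of insulin synthesis, processing and secretion, 20 had 33 peaks, with a median change of -0.09, and 1 peak was higher and 3 lower at p under 0.05, 0 of them past the FDR. The higher one was the Ins1 promoter at chr19:52263880-52264480, which the authors' deposited table gave as 4.12 in controls and 5.08 in βKO (SE of the change 0.44, p = 0.0307), called in 1 of 4 and 3 of 3 libraries. The MIP-rtTA transgene of every mouse also holds a mouse insulin promoter. Whether reads from it add to this peak was not tested. The lower ones included the Slc30a8 intron and intron 12 of 22 of Ptprn2, a dense-core granule protein (4.00 and 2.92 in the authors' deposited table, p = 0.0234).

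Genes of β cell transcription factors showed little. Of 25, 7 had 10 peaks, with a median change of 0.125. A distal site assigned to Isl1 was 2.69 in controls and 3.81 in βKO in the authors' deposited table (p = 0.0281). An intron of Rfx6 had 4.40 and 3.67 (p = 0.101), the Pax6 promoter 5.78 and 6.07 (p = 0.355) and the St18 promoter 4.40 and 4.10 (p = 0.476), in the authors' deposited table.

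Markers of other cells in the islet preparation gave few peaks. The list of α, δ, PP and ε cell markers had 8 peaks at 6 of 14 genes, with a median change of -0.075. Of the 8, 4 had the higher mean in βKO and 4 the lower, with changes from -0.87 to 0.85. The sites named here were all among the higher ones. In the authors' deposited table a distal site assigned to Sst had 4.38 and 5.07 (p = 0.0628). A site 1 to 2 kb from the Gcg start had 3.60 and 3.66 there, and the Etv1 site above also belongs to this list. Duct markers had 6 peaks, all at Pkhd1 (median -0.015), endothelial markers 3 (median -0.04), stromal markers 3 (median 0.21) and leukocyte markers 1, at Cx3cr1 (2.42 and 3.03 in the authors' deposited table). The part of cell composition in the differences was not tested.

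Among chromatin genes, 9 of 32 genes of SWI/SNF subunits had 10 peaks, and none other than Arid1a had p under 0.359. The median change over the 10 was -0.08. Of 42 genes of other remodellers and Polycomb, 17 had 21 peaks (median -0.14), with 1 lower at p under 0.05: exon 24 of 38 of Chd7, a CHD-family remodeller, at 4.43 in controls and 3.15 in βKO in the authors' deposited table (p = 0.00361).

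Signalling and stress pathways stayed near the whole set or somewhat above it. TGF-β, activin and BMP genes had 16 peaks with a median change of 0.31, 10 of them higher and 4 lower, and EGF, neuregulin and ERBB genes 28 peaks with a median of 0.18, 19 higher and 9 lower. At p under 0.05 the first list held 1 peak, the promoter of the activin receptor gene Acvr2a (4.72 and 5.51 in the authors' deposited table), and the second 0. Its smallest p was at intron 1 of 27 of Erbb4, a neuregulin receptor, with means of 4.30 and 3.43 in the authors' deposited table (p = 0.0506). Cell cycle genes (25 peaks) had a median of 0.08, Wnt and Notch genes (23) 0.04, insulin, IGF and PI3K genes (22) 0.01, unfolded protein response genes (21) -0.01 and AP-1 and immediate early genes (25) -0.07. In these 5 lists 1 peak had p under 0.05, the promoter of Atf6b, a stress sensor of the endoplasmic reticulum (4.13 and 3.18 in the authors' deposited table, p = 0.0484).

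Housekeeping families lay near the middle of the whole set, with oxidative phosphorylation genes somewhat lower. Cytosolic ribosomal protein genes (33 peaks) and mitochondrial ribosomal protein genes (24) both had a median of 0.03, oxidative phosphorylation genes (38) -0.08 and proteasome subunits (14) 0.015. Within the last, the Psmd1 promoter had means of 4.08 and 2.93 in the authors' deposited table (p = 0.0231). Of the 38 oxidative phosphorylation peaks, 16 were higher and 22 lower in βKO. The 35 within 3 kb of a start site had a median of -0.12, beside 0.04 for all promoters within 1 kb. Among 100 peaks of solute carrier genes, 4 were lower, including the promoter of Slc35b1, a transporter of the endoplasmic reticulum membrane, at chr11:95384359-95384959 with 3.85 and 2.23 in the authors' deposited table (p = 0.00443), and 1 was higher. Among 49 ion channel peaks 3 were lower and 1 higher: intron 7 of 15 of the potassium channel gene Kcnh7 had 3.37 and 1.62 in the authors' deposited table. Zinc finger Zfp genes (195 peaks, median 0.07) and olfactory and vomeronasal receptor genes (27 peaks, median 0.02) had 1 higher and 1 lower peak, and 0 and 1.

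Over all 26 lists, 824 peaks were covered, of which 9 (1.09%) were higher and 18 (2.18%) lower at p under 0.05. These shares are close to those of all peaks, 0.843% and 2.3%. Several medians turned with the kind of site: limited to peaks within 3 kb of a start site, that of β cell function genes was 0.03, of other remodellers and Polycomb 0.12, and of AP-1 and immediate early genes 0.17.

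**Figure D4:**
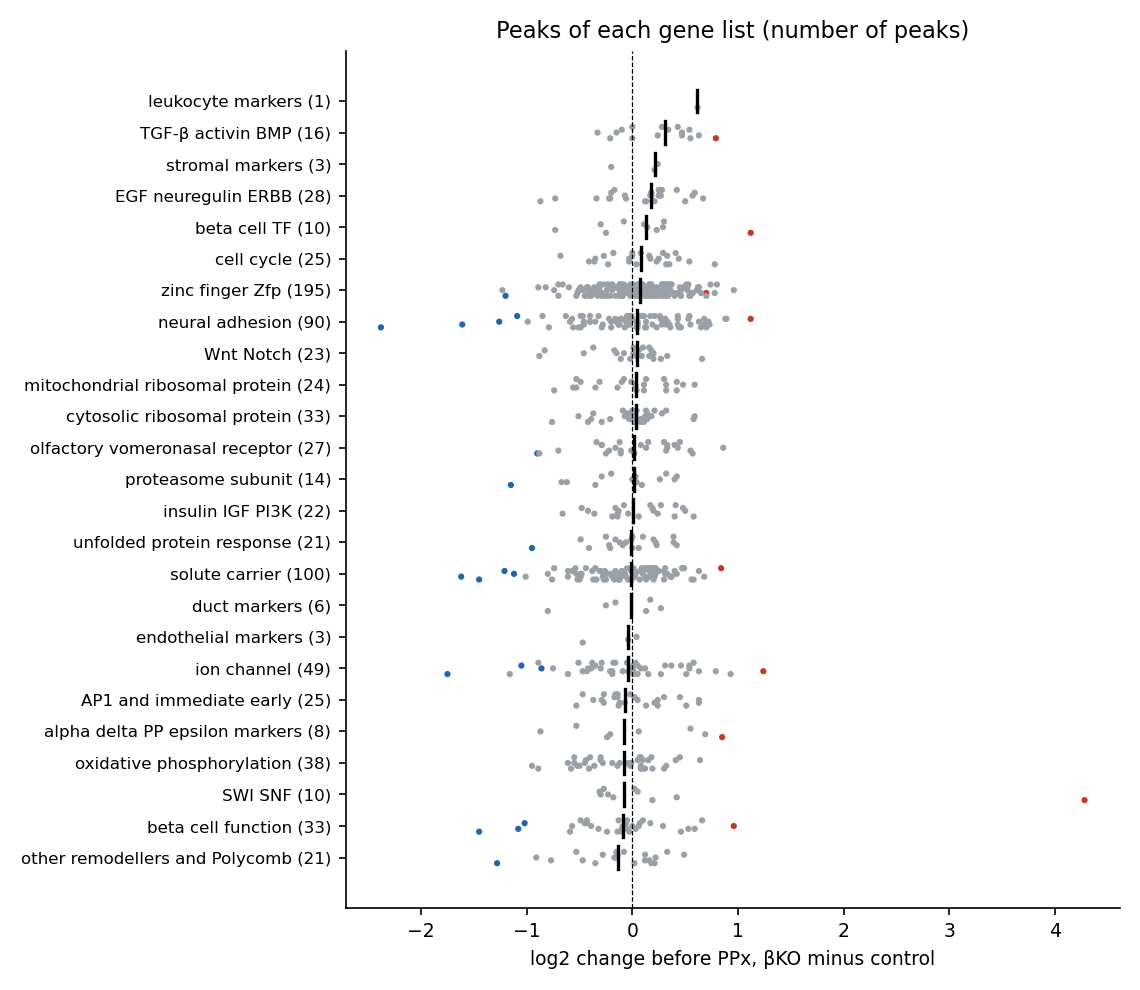
Log2 change before PPx of every peak of the gene lists that had one (number of peaks in brackets); each point is 1 peak, red and blue where the authors' unadjusted p was under 0.05, and black bars are medians. The medians run from -0.14 to 0.61, with 1 peak at the top, and the Arid1a peak at 4.28 stands alone.

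The same peaks were then read in the 8 mice taken after PPx, which share no library with the baseline comparison. There the background was different: of 13111 peaks, 9.88% were higher in βKO at an FDR under 0.05 and 0.0839% lower. Of the 7826 baseline peaks, 7504 overlapped a peak of that table by at least 1 bp, and their median change after PPx was 0.66 (quartiles 0.42 and 0.86). Peaks lower at p under 0.05 before PPx had a median of 0.22 after it (161 matched peaks, quartiles -0.08 and 0.53), and 51 of them (31.7%) were below 0, against 6.64% of all matched peaks. Relative to peaks of the same strength after PPx they stood at -0.38. Peaks higher before PPx had a median of 0.81 (64 matched peaks), and 19 of these (29.7%) lay below the median of all, as did 135 (83.9%) of the lower ones.

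Promoter and other peaks were then taken apart. The 118 lower peaks outside promoters had a median of 0.08 after PPx, beside 0.39 for all 2316 matched peaks outside promoters, and 47 (39.8%) were below 0, beside 18.8%. The 43 lower promoter peaks had a median of 0.61, beside 0.74 for all 5188 matched promoters, and 4 were below 0. The class split was added after the data were seen. Across matched peaks the baseline change and the later change had Pearson's r 0.29 and Spearman's rho 0.27 (7504 peaks), with 0.14 and 0.14 among promoters and 0.33 and 0.33 elsewhere. These describe peaks that share libraries and scaling within each time, not independent replicates, and no test of the difference between the classes was made.

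**Figure D5:**
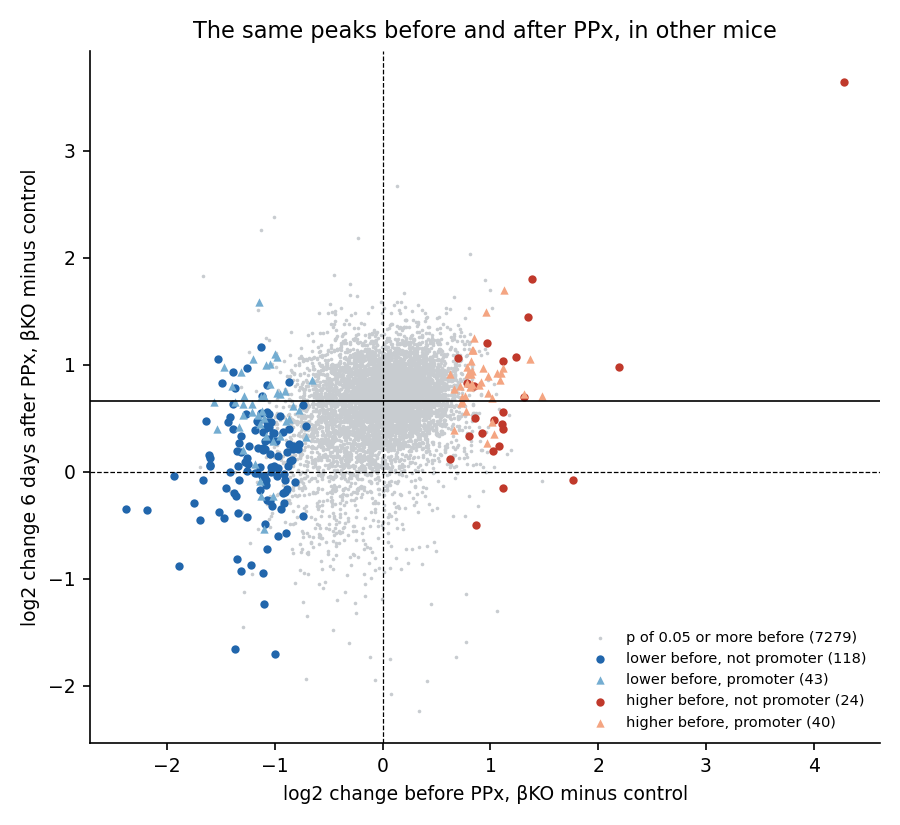
Log2 change (βKO minus control) of 7504 peaks before PPx (x axis) and 6 days after PPx in other mice (y axis); circles and triangles mark peaks outside and at promoters that had an unadjusted p under 0.05 before PPx, and the solid line is the median change after PPx, 0.66. Dark blue circles, lower before PPx and not promoters, lie mostly under that line, with a median of 0.08.

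Single sites showed both courses. The Slc30a8 intron, at 4.49 in controls and 4.34 in βKO after PPx, and the Kirrel3 intron, at 4.66 and 3.73, kept the sign of their baseline change in the authors' deposited table, with FDRs of 0.74 and 0.0687. Cntnap5b (3.33 and 2.98), Pde4d (3.82 and 3.74) and Ptprn2 (4.09 and 3.97) did so too. For all of these but Kirrel3, the difference after PPx was smaller than its SE at baseline. The Psmd1 promoter had the opposite sign, 3.09 and 4.68 (FDR 0.0154), in the authors' deposited table. Of the 12 lower peaks with the smallest p, 10 were matched, and 6 were lower and 4 higher after PPx. Of all matched peaks, 6.64% were lower then. Among the 10, 9 lay below and 1 above the median of their strength bin after PPx. Only 1 of the 12 was a promoter within 1 kb. All matched peaks outside such promoters had a median of -0.22 relative to their strength bin.

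Higher sites mostly stayed higher, as most peaks of the later table were. The Ins1 promoter had means of 4.13 in controls and 5.62 in βKO after PPx (change 1.49, FDR 0.0154 in the authors' deposited table), 0.75 above peaks of the same strength. Cldn1 had 3.52 and 4.25 (FDR 0.132), Etv1 5.73 and 6.53 (FDR 0.0589), and Fez2, without the baseline difference, 3.49 and 3.41, in the authors' deposited table. Of the 10 higher peaks with the smallest p, 9 were matched, 8 of them higher after PPx, and 5 lay above and 4 below the median of their strength bin. Of the 64 matched higher peaks, 17 passed the FDR as higher after PPx, and of the 161 lower peaks 5 passed as higher and 2 as lower. Of all 7504 matched peaks, 1172 passed as higher and 9 as lower.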

How the data were processed

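Islets of 7 mice before PPx (4 control, 3 βKO) and 8 after it (4 and 4) were profiled by single-end ATAC-seq with 75 bp reads. Per the submitters' processing notes, cutadapt, BWA, MACS, DiffBind and ChIPseeker were used with build mm10 (GRCm38); versions, settings and each tool's role were not given in the sources used here. Per the file headers, the authors deposited for each peak the mean concentration of each group on a log2 scale, a fold on the log2 scale, a p-value and an FDR, the annotated gene, and the number of libraries of each group in which the peak was called. No value or depth per library was used, so neither an SD nor the precision of 1 library can be given; the p-values measure the spread between mice as the authors' model took it.

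An empty row was dropped, and of the 9023 rows with a position 1197 were repeats and were dropped too. The change is the difference of the 2 group means, which differed from the deposited fold by at most 0.01. Strength bins are 10 equal bins of mean concentration, and matched peaks share at least 1 bp. Promoter letters come from RefSeq (GRCm38.p6). Distances to RefSeq starts cover 7541 peaks, the RefSeq starts at hand covering all chromosomes but 1. Of the 4052 promoters read, 81.0% carried the gene symbol of the authors' annotation. Analyses used Python 3.11.15, pandas 2.3.3, numpy 2.4.6 and scipy 1.17.1, and scripts were tested on simulated data.

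The text names every Arid1a peak, every peak past the FDR, and the 10 higher and 12 lower peaks with the smallest p at genes with an established name. It also names up to 6 genes with several peaks at p under 0.05 in 1 direction, the peak with the smallest p of each gene list and the 4 smallest of each β cell list. The comparison and the lists were chosen with earlier results of these data known. Some peaks that these rules name are not reported here. The deposited comparisons of times within a genotype were not used here.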

Additional observations from a re-analysis of the deposited data

How the results depend on the processing

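No paired analysis was possible because sample numbers are unique across groups and the deposited tables hold group means; for the same reason no mouse could be left out in turn. The Arid1a peak remained the 1 peak past the threshold with Benjamini-Hochberg adjustment of the deposited p-values, at thresholds of 0.01 and 0.1, and with repeated rows kept. At an unadjusted p under 0.01 the peaks numbered 9 higher and 41 lower; among peaks with a mean log2 concentration at or above the median, 39 and 46, fewer peaks being tested. The strongest bin exceeded the weakest by 0.30 in all peaks, by 0.22 without the peaks at the table's lowest value and by 0.08 outside promoters. Limited to peaks within 3 kb of a start site, the gene lists held 3 higher and 6 lower peaks at p under 0.05, against 9 and 18, and 9 of the list medians moved by more than 0.1. The median change after PPx of peaks lower before it, minus that of all matched peaks, was -0.44, and -0.13 among promoters within 1 kb and -0.31 among other peaks, a split added after the data were seen. No result changed sign in these alternatives other than list medians. Depth per library is unknown, and the SE of about 0.44 per peak limits what 7 mice could show.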

Other observations

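Some genes had more than 1 peak at p under 0.05 in the same direction; there were 5 such genes, Prkar2b among them. In the authors' deposited table Dyrk3, a kinase of stress granule dissolution, went from 3.82 in control to 2.22 in βKO islets at a downstream site and from 3.76 to 2.29 at its promoter. Ubac2, a protein of the endoplasmic reticulum, went from 4.23 to 2.91 at intron 4 and from 4.93 to 4.15 at its promoter, and Dennd11 from 4.30 to 3.24 and from 4.67 to 3.66 at sites in intron 1, in the authors' deposited table. Xrcc4, which acts in the joining of DNA double-strand breaks, was the 1 gene in the other direction, from 5.65 to 6.37 at its promoter and from 2.13 to 3.70 at intron 3 in the authors' deposited table. None of the 8 lower peaks of these genes was lower in βKO after PPx, when 6.64% of all matched peaks were lower. Their changes then ran from 0.05 at the downstream site of Dyrk3 to 0.98 at its promoter. That promoter had means of 3.34 in controls and 4.32 in βKO (FDR 0.0639 in the authors' deposited table). Relative to peaks of the same strength after PPx, the 8 ran from -0.57 at the downstream site to 0.39 at the promoter of Dyrk3. Most of them were below 0 on that measure.

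The X chromosome had the highest median change of all chromosomes, 0.10 over 298 peaks, with 58.4% of its peaks higher in βKO and a median of 0.13 relative to peaks of the same strength; all mice were male. Chromosomes 11 (255 peaks) and 19 (128 peaks) both had a median of -0.11. Of the 79 peaks on the Y chromosome, 61 held the table's lowest value in both groups, -0.12 in controls and -0.24 in βKO islets. There were 116 such peaks in all, and no change can be read from them. Without them 49.7% of peaks were higher and 49.3% lower in βKO, with a median of 0.00.

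The strongest peaks, 9 with a mean log2 concentration of at least 8, included 5 at predicted genes, such as Gm10222 at 15.90 in controls and 16.30 in βKO in the authors' deposited table. Their changes ran from -0.59 to 0.40. The median of all peaks was 4.02, and whether reads at these 9 sites mapped uniquely was not tested. Their values are therefore not read as accessibility. Predicted genes also supplied 15 of the 66 higher and 35 of the 180 lower peaks at p under 0.05. Besides Tmem267, a peak at Gm2237 was called in none of the 4 control libraries but all 3 of βKO although its mean was lower in βKO (1.26 and 0.74 in the authors' deposited table).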
